A study of Mus musculus with 2 samples.

Results

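The genes of planar cell polarity and of the Fat-Dachsous system described here were Vangl1, Vangl2, Celsr1, Celsr2, Scrib, Fat1, Fat4, Dchs1, Intu and Fuz. They were taken as all probe sets of the array that the platform annotation assigns to exactly 1 of these genes. This gave 19 of the 45101 probe sets, for 10 of the 18193 genes named in this way. Of the 19 probe sets, 16 were above the floor of 15.2 signal units on at least 1 array and are called measured, and these stood for 9 of the 10 genes. The floor is the median of all signals other than controls, and lower signals were set to it before a ratio was taken. Fuz had no measured probe set.

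The samples were whole mouse lungs at E15.5 (the embryonic day), of TAZ-deficient embryos and of their wild type littermates. For each genotype 4 RNA samples were pooled, and each pool was hybridised to 1 Affymetrix Mouse Genome 430 2.0 array. TAZ is the transcriptional coactivator encoded by Wwtr1, which is restrained by the Hippo kinases. No treatment was given to either group, and the sources used here do not give the strain, the sex or the way in which TAZ was removed. With 1 array per group no difference has a replicate check, and no test, SD between samples or p-value can be given. In RNA of a whole organ, fewer cells of a type and less RNA per cell cannot be told apart.

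Planar cell polarity aligns cells within the plane of a tissue. Its core membrane proteins, the multi-pass Vangl proteins and the adhesive Celsr cadherins, sit at cell junctions together with Frizzled receptors, and Scrib is a scaffold that works with Vangl proteins. Fat and Dachsous are giant cadherins that bind each other across cell borders, Fat4 being the main partner of Dchs1, and in flies this pair also feeds into the Hippo pathway. Intu and Fuz are effectors of the CPLANE complex, which is needed to build cilia. In mouse lung, Celsr1, Vangl2 and Scrib are known to be needed for normal branching of the airways.

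Both arrays carried the signal of lung, and the targeted gene matched the labels. The 6 epithelial markers and the 6 mesenchymal markers were all measured, the epithelial ones summing to 8180 on the wild type and 8285 on the TAZ-deficient array and the mesenchymal ones to 7881 and 8004. The 3 probe sets of Wwtr1 gave 791.2, 222.9 and 176.9 units on the wild type array against 11.3, 6.4 and 3.9 on the other. Over all 21294 measured probe sets that name 1 gene, 1.62% were at least 1.5-fold higher and 1.81% at least 1.5-fold lower in TAZ-deficient lung, and 79.1% were within 1.2-fold. As a measure of error, the log2 ratios given by 2 probe sets of a gene were compared. Per probe set, their SD was 0.20 over 5637 genes. It was 0.13 for the 2418 genes with both above the 75th percentile of signal, 106.3 units, and 0.25 for the other 3219 genes. That value holds no variation between embryos, pools or arrays.

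Markers of other cell types are given here as context for the values that follow, and their part in them was not tested. Each marker was read at its brightest probe set. Log2 ratios ran from -0.03 to 0.10 for epithelium, -0.33 to 0.12 for mesenchyme, -0.13 to 0.23 for endothelium, -0.04 to 0.23 for mesothelium (2 of 3 measured), -0.45 to 0.25 for leukocytes and -0.50 to -0.08 for neurons (2 of 3 measured). Some second probe sets lay outside these ranges: Epcam of epithelium (0.573), Tbx5 (-0.742) and Tcf21 (0.226) of mesenchyme, and Stmn2 of neurons (0.37). Smooth muscle ran from -0.59, at Cnn1, to -0.03. The 3 heart muscle markers above the floor, Myl7, Myh7 and Tnnt2, were between -0.86 and -0.61, and the 3 embryonic globins Hbb-y, Hba-x and Hbb-bh1 between 1.61 and 1.85. Ciliated cell markers ran from -1.24 to 0.02. Of 3 liver markers 1, Alb, was above the floor, with 15.3 and 10.7.

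Of the 16 measured probe sets of the polarity genes, 2 were at least 1.5-fold higher in TAZ-deficient lung, against 1.62% of all measured probe sets, and 0 were at least 1.5-fold lower, against 1.81%. The 2 were 1 of the 4 probe sets of Intu and 1 of the 2 probe sets of Fat4. Ratios were above 0 for 7 and below 0 for 9 of the measured probe sets, and 10 of the 16 were within 1.2-fold. Among the 7 is 1432781_at of Intu, which was above the floor only in TAZ-deficient lung, so its ratio could only be above 0. At least 1.2-fold higher were 4 and at least 1.2-fold lower 2, against 9.21% and 11.7% of all measured probe sets, and at 2-fold 0 were higher, against 0.178%. With each gene represented by its brightest probe set, the median log2 ratio (TAZ-deficient over wild type, as throughout) was 0.10 over 9 genes, against -0.01 over all 12040 measured genes. With each gene at the median of its measured probe sets it was 0.04. Over all 16 measured probe sets the median was -0.07, so its sign depends on whether genes or probe sets are counted. At the level of genes, each at its brightest probe set, 2 of 9 were at least 1.5-fold higher and 0 lower, against 1.29% and 1.49% of all measured genes. These 2 are the same probe sets of Intu and Fat4 as above, so the count adds no further evidence. The other measured probe sets of both genes were below 1.5-fold.

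**Figure D1:**
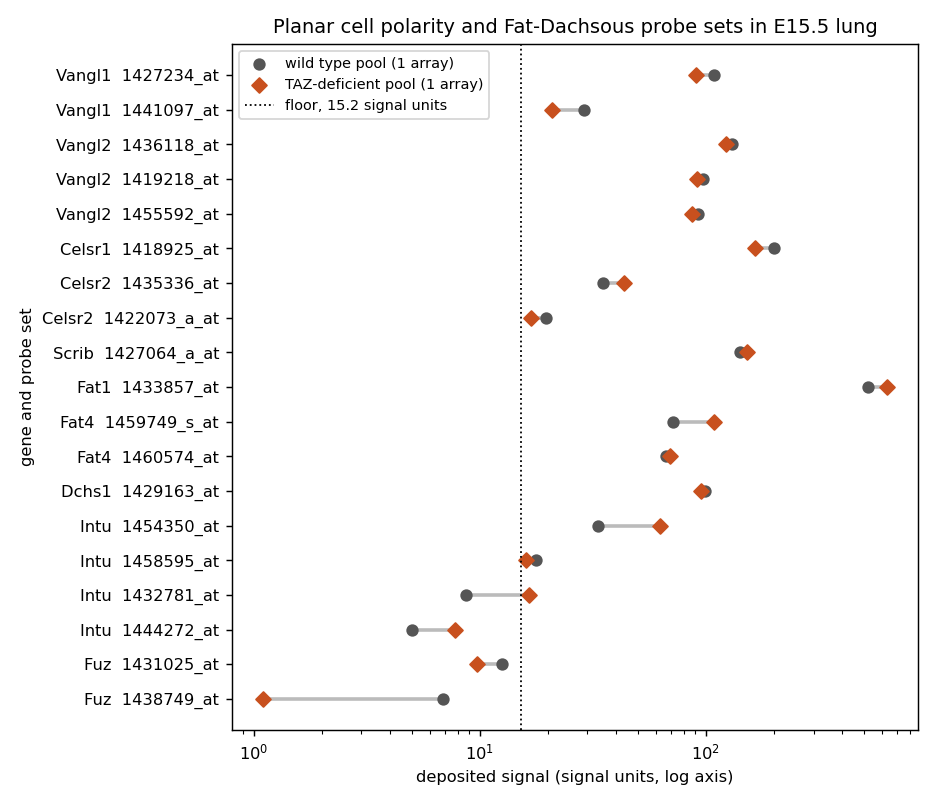
Deposited signal (log axis, signal units) of the 19 probe sets of the 10 polarity genes, with 1 circle for the wild type pool and 1 diamond for the TAZ-deficient pool; the dotted line is the floor of 15.2 units. The widest gaps above the floor are those of Intu (33.3 and 62.9) and Fat4 (71.8 and 108.3), both to the right in TAZ-deficient lung, while both probe sets of Fuz lie below the floor on both arrays.

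Intu, the effector of planar polarity that also serves ciliogenesis, had the largest difference of the group. Its brightest probe set, 1454350_at, read 33.3 units in the wild type pool and 62.9 in the TAZ-deficient pool, 1.89-fold higher (log2 ratio 0.92). Among all measured probe sets it was number 55 from the highest ratio, and 0.535% of them differed by as much in either direction. A second probe set, 1432781_at, which the annotation assigns to the same source transcript AV381549, read 8.7 and 16.5. Its deposited signals had a ratio of 1.90, and with the wild type signal raised to the floor it was at least 1.09-fold higher. Probe set 1444272_at was below the floor on both arrays with 5.0 and 7.8. The fourth, 1458595_at, was just above the floor and read 17.7 and 16.0, 1.11-fold lower. Thus 3 of the 4 deposited signal pairs of Intu were higher in TAZ-deficient lung, of which 2 come from the same source transcript, and only 1 pair lay above the floor on both arrays with a higher value. The measured probe sets of Intu spanned 1.06 log2 units, the widest span of any member.

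Fat4, the giant cadherin that acts as receptor for Dchs1, was also higher, by 1 of its 2 probe sets. Probe set 1459749_s_at read 71.8 and 108.3, 1.51-fold higher (log2 ratio 0.59), which was number 320 from the highest ratio. The "s" in its name marks probes that can bind several transcripts. The other probe set, 1460574_at, read 66.6 and 69.6, 1.04-fold higher (0.06). Both were thus above wild type, but they differed from each other by 0.53 log2 units. The higher value passed 1.5-fold by a small margin, and without shared probe sets Fat4 was not among the genes at that fold. Such disagreement was common in these data: of 92 genes that were at least 1.5-fold different by the brightest probe set and had a second measured one, the other pointed in the same direction in 59 and reached 1.5-fold in that direction in 7.

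The start regions of Intu and Fat4 are shown because these were the members with the largest differences. The RefSeq promoter table of build GRCm38.p6 held an entry for 6 of the 10 genes, and 4 had none there. Each run below is the 250 bases before the transcript start in that table, 5′ to 3′ on the plus strand, which for both genes lies inside the gene's widest annotated extent. Intu is at chr3:40540517-40540766 and Fat4 at chr3:38886690-38886939. Capitals mark GGCAAC, the reverse of GTTGCC, part of the X-box to which RFX factors of ciliary genes bind.
Intu: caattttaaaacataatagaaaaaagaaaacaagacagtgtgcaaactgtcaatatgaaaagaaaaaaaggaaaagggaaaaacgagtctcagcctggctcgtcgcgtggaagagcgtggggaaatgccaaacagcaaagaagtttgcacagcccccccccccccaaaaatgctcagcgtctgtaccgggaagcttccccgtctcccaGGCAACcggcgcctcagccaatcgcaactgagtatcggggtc
Fat4: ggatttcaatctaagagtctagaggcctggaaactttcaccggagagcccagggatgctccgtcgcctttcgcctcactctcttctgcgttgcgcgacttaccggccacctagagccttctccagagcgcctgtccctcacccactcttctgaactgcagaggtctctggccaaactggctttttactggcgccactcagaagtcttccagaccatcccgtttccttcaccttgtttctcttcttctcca
The letters GTTGCC, on either strand, were found in the windows of Intu and Fuz, 2 of the 6 members, and in 10.4% of all 32851 windows of the table. The letters GGAATG, the core of the site that TEAD factors, the partners of TAZ, bind, were found on either strand in 12.6% of all windows and in 1 of the 6 members, Fat1. They were in neither of the windows shown. A match is only a match of letters, and its absence says nothing about binding elsewhere.

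Fuz, the partner of Intu in the CPLANE complex, was not measured. Its probe sets read 12.5 and 9.7, and 6.9 and 1.1, in wild type and TAZ-deficient lung, all below the floor, so no fold is given. Of the other 3 CPLANE genes, none was at least 1.5-fold different. Cplane1, a large protein of the ciliary base, read 33.9 and 46.7 (1.38-fold higher), and its other 2 measured probe sets were above wild type as well, the brighter reading 15.9 and 20.2. Wdpcp, a WD repeat member of the complex, read 49.6 and 39.5 (1.26-fold lower), and the small GTPase Cplane2 read 15.4 and 17.0, near the floor. The complex therefore showed ratios in both directions. Beside these genes, 4 of 5 ciliated cell markers (Dynlrb2, Cfap126, Ccno and Rsph1) were lower by 1.5-fold or more, against 1.49% of all measured genes. The remaining marker, Foxj1, was close to wild type with 32.2 and 32.6 (log2 ratio 0.018). The 5 together summed to 303.0 units on the wild type and 177.2 on the TAZ-deficient array. The part of ciliated cells in the values of Intu and its partners was not tested.

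**Figure D2:**
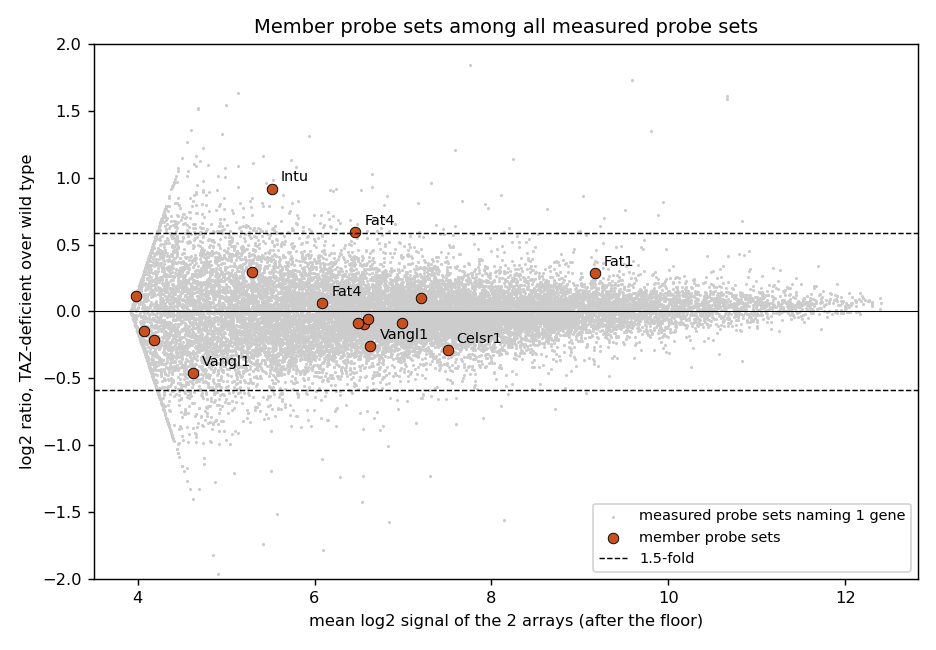
Log2 ratio, TAZ-deficient over wild type, on the vertical axis against the mean log2 signal of both arrays (horizontal axis) for the 21294 measured probe sets that name 1 gene (grey) and the 16 of the polarity genes (orange); dashed lines mark 1.5-fold, and 7 probe sets lie beyond the vertical axis. The probe sets of Intu (0.92) and Fat4 (0.59) are on or above the upper line, and the dim ones at the left lie where the grey cloud is widest.

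The Vangl genes encode the core protein on the side of the cell opposite to Frizzled. Vangl2, the gene mutated in loop-tail mice, was close to wild type at all 3 probe sets, which read 130.7 and 123.1, 97.7 and 91.5, and 92.4 and 87.2. The ratios were 1.06-fold, 1.07-fold and 1.06-fold lower and lay within 0.011 log2 units of each other, the closest agreement of any member with several measured probe sets. Of all measured probe sets, between 59.4% and 63.6% differed by as much. Vangl1, its paralogue, was lower at both probe sets. The brighter read 108.4 and 90.7 (log2 ratio -0.26) and the dimmer 28.9 and 21.0 (log2 ratio -0.46, 1.38-fold lower), the lowest ratio among the members. Differences of these sizes in either direction were seen for 21.7% and 6.54% of measured probe sets. Whether Vangl1 and Vangl2 differ from each other in their response was not tested, since each has 1 array per genotype.

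Celsr1 and Celsr2 encode the flamingo cadherins that bridge neighbouring cells. By its only probe set Celsr1 gave 200.7 units in wild type against 164.5, 1.22-fold lower (log2 ratio -0.29), and 18.1% of measured probe sets differed by as much. Celsr2 read 35.3 and 43.3 by its brighter probe set (1.23-fold higher) and 19.6 and 16.9 by its dimmer one (1.16-fold lower), so that its direction was not settled. Both pairs of Celsr2 were dim, and their log2 ratios lay 0.51 apart. Celsr3, the remaining gene of the family, was below the floor with 0.4 and 0.8. Scrib, the PDZ and leucine-rich scaffold, read 142.4 and 152.5, 1.07-fold higher, by a probe set that can bind several transcripts.

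Among the giant cadherins other than Fat4, Fat1 was the brightest, with 520.7 and 635.7 (1.22-fold higher, log2 ratio 0.29). Fat1 regulates the actin cytoskeleton and cell contact, and its only probe set lay well above the floor, where the SD between probe sets of a gene was 0.13. That SD holds no variation between embryos, pools or arrays, and Fat1 had no second probe set to compare. Over all signals, 7.89% of measured probe sets had a ratio at least as high. Dchs1, the ligand of Fat4, was close to wild type with 99.3 and 95.7 (1.04-fold lower). Fat3 read 17.2 and 19.9 and Fat2 was below the floor on both arrays with 2.7 and 0.8, while Dchs2 had no probe set that names it alone. Fjx1, the Golgi kinase gene related to four-jointed, which phosphorylates cadherin domains of this family in flies, read 52.0 and 54.1. Lix1l, the brightest of these further genes and a relative of Lix1, whose fly counterpart is lowfat, read 143.0 and 137.1.

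Intu and Fat4 lie on chromosome 3 of the mouse, which also carries Wwtr1, and so do Vangl1 and Celsr2. In the RefSeq gene table Fat4 and Intu were neighbours among the measured genes, with 40 and 39 measured genes between them and Wwtr1, while Vangl1 and Celsr2 lay on the other side of Wwtr1 with 265 and 320 genes between. Both members at 1.5-fold were thus on the chromosome of the targeted gene, and the 5 measured members on other chromosomes had log2 ratios between -0.29 and 0.29. Vangl1 and Celsr2, on the same chromosome as Wwtr1, had log2 ratios of -0.257 and 0.295 by their brighter probe sets. By their dimmer ones the ratios were -0.461 and -0.214. The genes directly beside the pair read close to wild type: Ankrd50 on the side of Fat4 read 274.9 and 292.6, and Hspa4l on the side of Intu read 82.7 and 78.9.

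Other genes of the stretch from Fat4 to Wwtr1, chosen after the values of Fat4 and Intu were seen, were then compared. Of the 39 measured genes between Fat4 and Wwtr1 other than Intu, 2 were at least 1.5-fold higher and 1 lower, 7.69% against 2.77% of all measured genes. These were Frem2, an extracellular matrix protein of the basement membrane (85.1 and 128.9, 1.52-fold higher), the clone 2610316D01Rik (35.3 and 55.7, 1.58-fold higher), and Tm4sf1, a membrane protein whose gene is the measured neighbour of Wwtr1 on that side (258.9 and 144.2, 1.80-fold lower). None of the 3 had a second measured probe set. Commd2, the measured neighbour of Wwtr1 on its other side, had a log2 ratio of -0.20. Of the 50 measured genes nearest to Wwtr1 on the side of Fat4, 5 were 1.5-fold different, 4 of them higher, Fat4 and Intu included, and on the other side 2 of 50, Bche and Rarres1, both lower. Over the 599 measured genes of the chromosome without Wwtr1 and the members, 13 were higher and 9 lower, 3.67% together, against 2.69% on the other chromosomes. The loss of TAZ and the presence of the chromosome segment around the disrupted gene cannot be told apart in this design, for Fat4 and Intu as for their neighbours.

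**Figure D3:**
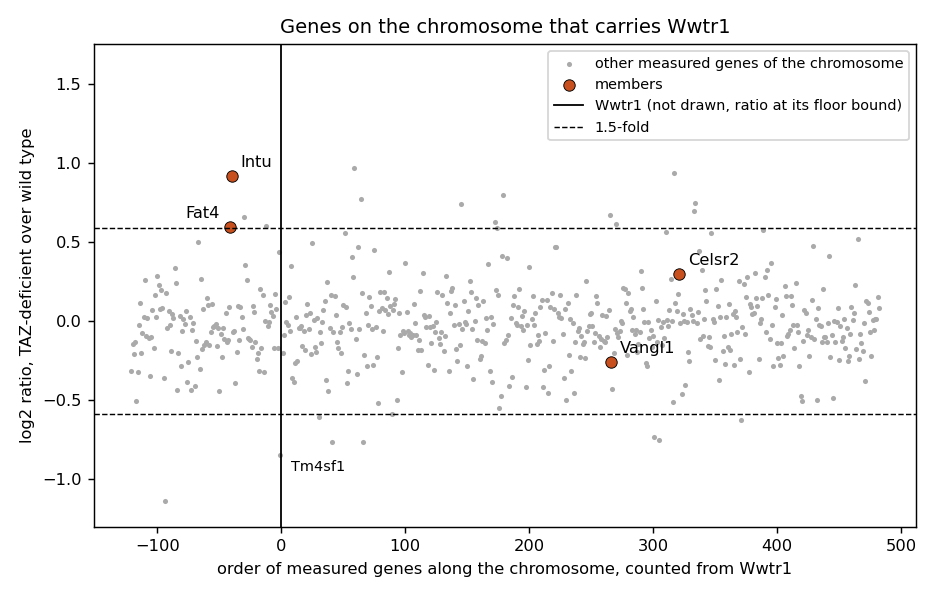
Log2 ratio, TAZ-deficient over wild type, on the vertical axis for the measured genes of chromosome 3 by their order from Wwtr1 (horizontal axis, number of measured genes, Wwtr1 at 0 and not drawn); members are orange, other genes grey, and dashed lines mark 1.5-fold. Fat4 (0.59) and Intu (0.92) sit side by side at 41 and 40 genes before Wwtr1, with Tm4sf1 (-0.84) next to it, while Vangl1 and Celsr2 lie far on the other side within the lines.

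Among the other genes of planar cell polarity, each at its brightest probe set, log2 ratios ran from -0.33 (Wdpcp) to 0.51 (Dlg4). Of 48 listed genes 39 were measured, and 0 were at least 1.5-fold higher and 0 lower, against 1.29% and 1.49% of all measured genes, so that a count of 0 is near the background for a list of this size. Ratios were positive for 21 and negative for 18, and the median log2 ratio was 0.01. At 1.2-fold, 6 were higher and 1 was lower, against 8.04% and 10.6% of all measured genes, and no test of that split was made. Second probe sets did not share this lean. In the groups described below, those of Fzd6 (-0.39), Fzd7 (-0.363), Dvl1 (-0.275), Ankrd6 (-0.759), Dlg1 (-0.284) and Smurf1 (-0.301) were at least 1.2-fold lower. Those of Gpc4 (0.395) and Cplane1 (0.345) were at least 1.2-fold higher.

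Among the Wnt-facing components, Frizzled and Dishevelled genes ran from -0.08 to 0.30 on the log2 scale. Fzd7, the brightest Frizzled of the list, read 550.4 and 555.6. Dvl2, a cytoplasmic transducer, read 111.5 and 137.3 (1.23-fold higher), and Dvl3 was below the floor on both arrays. The Wnt5a receptor genes and ligands, 7 measured, had a median of 0.05, with the pseudokinase receptor Ryk the brightest at 423.8 and 388.2. Wnt5a, the ligand that orients this pathway in mammals, read 101.9 and 90.4, and its second probe set 39.1 and 43.6, in the opposite direction. Its receptor Ror2 read 87.8 and 104.5. Prickle1, a cytoplasmic partner of Vangl proteins, was the brightest of its group and read 175.4 and 174.3. Ankrd6, or Diversin, which binds Dishevelled, read 30.8 and 28.1 by its brightest probe set and 30.8 and 18.2 by the other (log2 ratios -0.13 and -0.76). The latter was the only one of the 74 measured probe sets of the list past 1.5-fold, against 1.62% higher and 1.81% lower among all probe sets.

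Of the partners of Scrib, 9 of 10 were measured, with a median log2 ratio of -0.06. Llgl1, the basolateral partner of Scrib, was the brightest with 458.2 and 428.5, and Dlg1, another protein of that module, read 349.1 and 323.5 with a second probe set at 222.4 and 182.7. Dlg4 had the highest ratio of the whole list, at least 1.42-fold higher, but with 14.9 and 21.6 it was below the floor in wild type. Git1, which binds Scrib through Arhgef7, was 1.32-fold higher (77.5 and 102.1), and Arhgef7 itself was 1.19-fold lower (319.6 and 268.6). Sec24b, the coat protein that exports Vangl2 from the endoplasmic reticulum, read 141.8 and 177.2 (1.25-fold higher; second probe set 121.2 and 127.9), and lies on chromosome 3 as well, 392 measured genes from Wwtr1. The ubiquitin ligase Smurf2, which targets Prickle1, read 485.7 and 471.2. By its brightest probe set, no gene of these groups reached the ratio of Intu or Fat4.

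**Figure D4:**
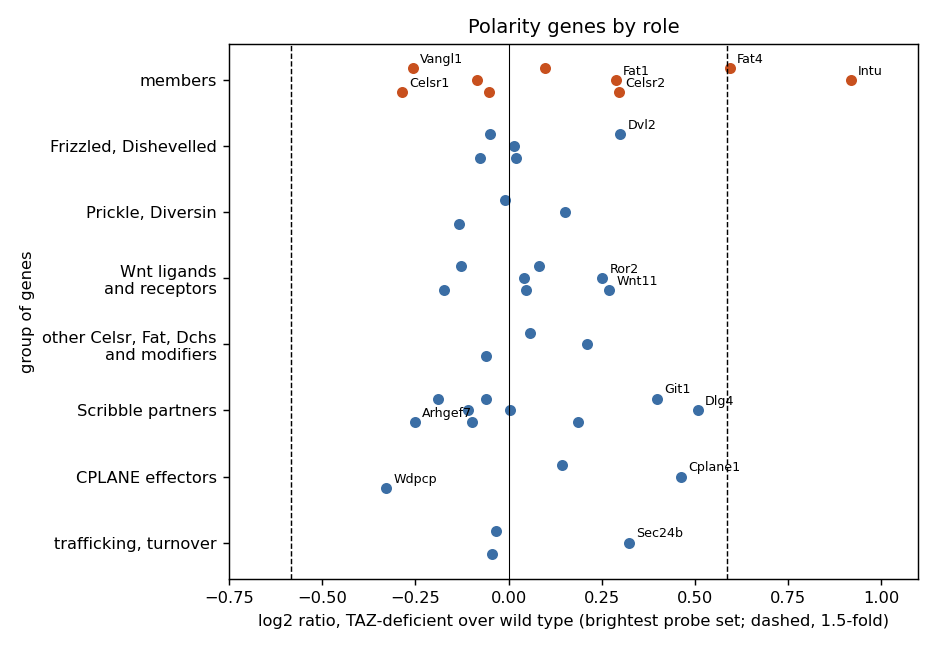
Log2 ratio, TAZ-deficient over wild type, on the horizontal axis for the 9 measured polarity genes described here (orange) and 33 other measured genes of the pathway by role (blue), 1 point per gene at its brightest probe set; dashed lines mark 1.5-fold and genes at 0.25 or more from 0 are named. Intu and Fat4 are the only points on or past a dashed line, and the highest of the others is Dlg4 (0.51).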

How the data were processed

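The deposited intensity values give a linear signal for each probe set and array, made by the authors with GCOS and MAS5 per the submitters' processing notes, with no version given. On both arrays the mean without the lowest and highest 2% of values was 100.0, which shows a common scaling. Signals reached 5348.1 and 5541.4, with medians of 15.2 and 15.1. Probe level data, detection calls and the probes' genome build were not used here.

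Probe sets with several genes (932) or no gene (9160) in the platform annotation were left out. Symbols were updated by Entrez identifier to GRCm38.p6 for 34741 of 34945 probe sets. Signals below 15.2 were raised to it, and the log2 ratio was taken of TAZ-deficient over wild type. Each gene was read at its brightest probe set by mean log2 signal, and a difference counted from 1.5-fold. The fold is "at least" where 1 signal was at the floor. All probe sets of the 10 genes are named, and of the pathway list any gene at 1.5-fold and the brightest of each group; other genes given were chosen after their values were seen. The 48 pathway genes and 45 cell markers come from textbook knowledge. The members and lists were chosen with earlier results of these data known. The X-box letters were added after the promoters were seen. The counting was tested on simulated data. Protein sequences were not analysed here, and 1 group of the pathway list, which is in its counts, is not reported here. Python 3.11.15, pandas 2.3.3, R 4.3.3 and limma 3.58.1 were used.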

Additional observations from a re-analysis of the deposited data

How the results depend on the processing

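The number of arrays, 1 per group, limits every value, and no paired analysis was possible because neither group has a second array. No measured member probe set changed the sign of its ratio under another floor, median centring, quantile normalization, loess or the omission of shared probe sets, where it could be computed. Dim signals depended on the floor. The shares of all probe sets and genes were taken only at the floor used above, with shared probe sets included. Counts at another floor, without a floor or without shared probe sets therefore have no background beside them. Whether such counts exceed the background was not tested. Of 2 member probe sets at least 1.5-fold higher, the count became 4 at a floor of the 25th percentile (4.3 units), where 3 probe sets of Intu and 1 of Fat4 passed, 0 at the 75th percentile (106.3 units, 6 probe sets measured) and 1 without shared probe sets. It was 4 at 1.2-fold and 0 at 2-fold, where 9.21% and 0.178% of all measured probe sets were higher. The count lower, 0, became 1, a probe set of Fuz, at a floor of the 25th percentile and without a floor, and 2 at 1.2-fold, against 11.7% of all. For the pathway genes the counts of 0 higher and 0 lower became 1 and 2 at a floor of the 25th percentile. Without a floor they became 1 and 3. No share of all genes was taken at either setting, so no shift of the pathway genes is read from these counts. At 1.2-fold the counts were 6 and 1, against 8.04% and 10.6% of all genes. The median log2 ratio of the members ran from -0.001 at a floor of the 75th percentile to 0.124 after loess. The higher Fat4 probe set had a log2 ratio of 0.03 at a floor of the 75th percentile, where the wild type signal is raised to the floor, and the brightest Intu probe set was not measured there.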
